A study of Mus musculus with 16 samples.

Results

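The 34 genes described here carry out the unfolded protein response and the integrated stress response. They were taken by gene name from a table of 54532 genes, and all 34 were found. One further row carries the name Ddit3, with a length of 105 bases and 0 counts in every culture, and was not used. RNA was measured by sequencing in 16 cultures of differentiated mouse jejunal enteroids, which are epithelial cultures grown from crypts, with 4 cultures from 4 mice in each of 4 groups. Whether groups shared mice is not stated in the sources. In MYO5BΔIEC enteroids (Vil1-CreERT2;Myo5b flox/flox) Cre recombinase was driven by the villin promoter of the intestinal epithelium, and its induction removed the motor protein myosin Vb. MYO5B(G519R) enteroids carried Vil1-CreERT2;Myo5b flox/G519R, so that the allele with the point mutation remained after Cre induction. Cultures of both received 1 µM 4-OH-tamoxifen to induce Cre before 2 days of differentiation. The Compound-1-treated group was MYO5BΔIEC enteroids given 100 nM Compound-1, an agonist of the lysophosphatidic acid receptor LPAR5, through those 2 days, and untreated MYO5BΔIEC enteroids received vehicle. The remaining group was untreated control enteroids. The sources differ on whether these were vehicle-treated cultures of the flox/flox mice or cultures of healthy littermates, and the labels name 4-OH-tamoxifen for the mutant cultures only, so that an effect of that drug and an effect of MYO5B loss cannot be told apart in comparisons with control.

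Proteins enter the endoplasmic reticulum (ER) unfolded, and chaperones such as BiP and GRP94 fold them there. When unfolded protein accumulates, the sensors IRE1, ATF6 and PERK respond. IRE1, through spliced XBP1, and ATF6 raise the transcription of chaperones and of the ER-associated degradation machinery, which returns misfolded proteins to the cytosol for destruction. PERK phosphorylates the translation factor eIF2, as do other kinases that sense amino acid shortage, heme or double-stranded RNA, and this raises translation of the transcription factor ATF4. ATF4 in turn switches on genes of amino acid supply, redox balance and cell death. The chaperone arm and the ATF4 arm can therefore be read separately. Intestinal secretory cells depend on the first of these because they make large amounts of mucus and other secreted proteins. RNA does not show XBP1 splicing, eIF2 phosphorylation or ATF6 cleavage.

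The genes were grouped by role as 14 ER chaperones and folding factors, 6 genes of ER-associated degradation, 6 sensors and transcription factors, and 8 ATF4 targets or genes downstream of eIF2 phosphorylation. Both arms are known for separate promoter elements, and stretches that hold them are shown so that a reader can see what sets the groups apart in sequence. RefSeq promoter windows of 300 bases (250 before and 50 after the start, GRCm38.p6) were found for 29 of the 34 genes, and there was none for Hyou1, Manf, Derl1, Ern2 and Atf6. Both strands were searched. The ER stress element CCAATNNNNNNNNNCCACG, the classical element of ATF6 and XBP1, was in the windows of 9 genes, namely Calr, Canx, Creld2, Dnajc3, Hsp90b1, Hspa5 and Pdia6 among the chaperones and Derl3 and Syvn1 in ER-associated degradation. Across all 32851 mouse promoter windows it was in 0.119%. Its second form, ATTGG and CCACG around 1 base of any kind, was in Dnajb11 and Herpud1 and in 0.0365% of all windows. The C/EBP-ATF response element TGATGNAAN, which ATF4 binds, was in Asns, Atf3, Chac1 and Trib3 and in Herpud1, and in 3.95% of all windows. A cyclic AMP response element, TGACGTCA, was in Ppp1r15a and in 1.79% of all windows, and TGACGTGG, an XBP1 element, was in none of the 29 genes and in 0.676% of all windows. No matches of different elements overlapped in these genes. A match describes the letters only, and no binding was measured. The capitals below mark the element, on the strand of the gene, 5′ to 3′.
Hspa5 (chr2:34772020-34772048, + strand): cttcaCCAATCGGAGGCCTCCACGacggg
Hsp90b1 (chr10:86705613-86705692, − strand): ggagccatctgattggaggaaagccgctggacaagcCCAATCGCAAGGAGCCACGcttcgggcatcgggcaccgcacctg
Dnajc3 (chr14:118937791-118937870, + strand): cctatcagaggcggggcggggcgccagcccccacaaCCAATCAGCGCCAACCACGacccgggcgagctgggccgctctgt
Pdia6 (chr12:17266455-17266534, + strand): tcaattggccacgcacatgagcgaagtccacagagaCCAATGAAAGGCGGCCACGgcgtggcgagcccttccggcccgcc
Syvn1 (chr19:6046496-6046575, + strand): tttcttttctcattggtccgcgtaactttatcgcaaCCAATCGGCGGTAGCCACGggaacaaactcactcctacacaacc
Herpud1, second form (chr8:94386333-94386412, + strand): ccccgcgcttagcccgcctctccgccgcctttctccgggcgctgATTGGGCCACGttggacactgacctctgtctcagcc
Chac1 (chr2:119351002-119351081, + strand): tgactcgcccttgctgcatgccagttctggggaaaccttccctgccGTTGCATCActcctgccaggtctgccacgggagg
Trib3 (chr2:152344029-152344057, − strand): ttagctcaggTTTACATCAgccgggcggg
Asns (chr6:7693214-7693242, − strand): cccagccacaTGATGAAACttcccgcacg
Atf3 (chr1:191183426-191183454, − strand): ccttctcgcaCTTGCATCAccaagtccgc
In Chac1, Trib3 and Atf3 the element lies on the opposite strand and is read there as its reverse complement.

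Between 27804968 and 40101729 reads were counted on genes per culture. A gene with a count of 0 could, by counting error alone, still be at 0.0737 to 0.111 CPM. CPM are read counts scaled to library size with edgeR's TMM method. Myo5b, the targeted gene, had a mean of 189 ± 29.9 CPM (SD, 4 cultures) in control enteroids. MYO5BΔIEC had 128 ± 31.0 CPM, Compound-1-treated enteroids 111 ± 26.8 and MYO5B(G519R) 150 ± 17.0. Its log2 fold changes of -0.55 (MYO5BΔIEC, edgeR FDR = 0.0503) and -0.33 (MYO5B(G519R), edgeR FDR = 0.109) did not pass, while that of Compound-1-treated enteroids against control, -0.77, did (edgeR FDR = 0.0146). Counts over the whole gene include transcripts without the floxed sequence. Markers of enterocytes, goblet, Paneth, enteroendocrine and tuft cells were all detected, whereas 2 of 5 fibroblast markers (Col3a1 and Dcn) were at 0 in every culture and the 5 summed to at most 0.956 CPM. One culture stood apart. Control culture 1 lay at 54.8 on the second principal component, where the other 15 cultures lay between -29.9 and 13.97, and its median correlation with the other controls was 0.971 against 0.993 to 0.994 for the others. Mitochondrially encoded genes took 6.41% of its counts, 9.07% to 10.4% in the other controls and 3.79% to 6.63% in the mutant cultures. Its 8 enterocyte markers summed to 3028 CPM, with 6 of 8 more than 2-fold below the median of the other controls, and all 6 Paneth markers were below that median. Several results that rest on it are given with and without it, and others, such as those of Atf6, Xbp1 and Herpud1, only with it. It was left out after its values were seen, and it was the highest control for all 8 ATF4 targets. FDR values without it are therefore a description. In bulk RNA, fewer cells of a type and less RNA per cell cannot be told apart.

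The plot of all 34 genes by culture shows how the arms differed within groups. In no culture did any of the 14 ER chaperones lie over 2-fold above or below the median of the other 3 cultures of its group, whereas most ATF4 targets did so in single cultures of 3 groups.

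**Figure D1:**
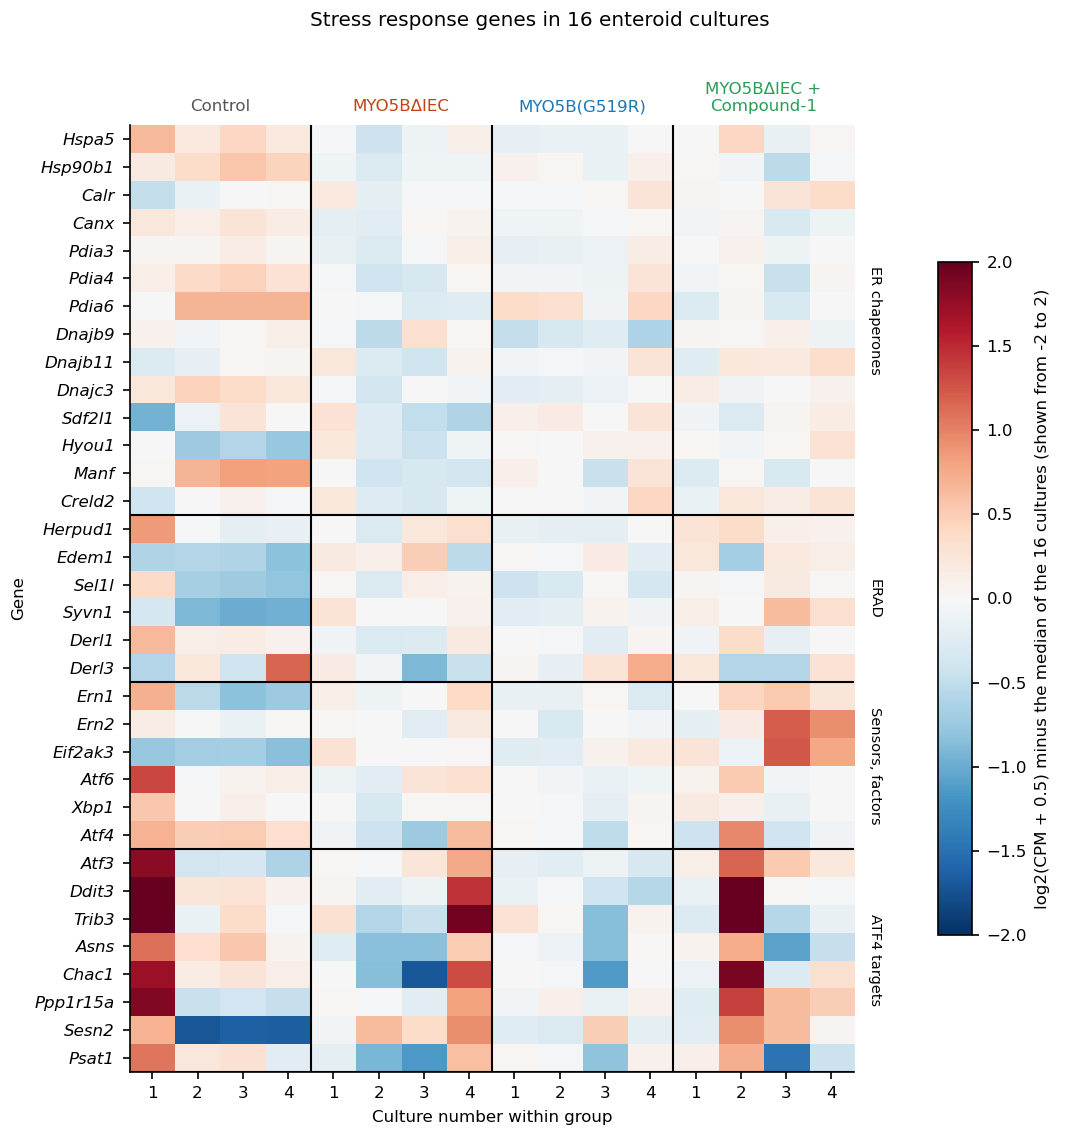
Heat map of the 34 genes (rows, grouped by role) in the 16 cultures (columns, 4 per group). Color gives log2(CPM + 0.5) minus the median of the 16 cultures, on a scale that ends at -2 and 2. The strongest red lies among the ATF4 targets in control culture 1, MYO5BΔIEC culture 4 and Compound-1-treated culture 2, and the ER chaperone rows above them are paler in the same columns.

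Levels are first compared between genes, in FPKM, which divide by gene length as well as library size. Among control cultures Hspa5, which encodes the central chaperone BiP, had the highest level at 229 ± 38.5 FPKM (SD, n = 4). Calr and Pdia3, the calreticulin and disulfide isomerase that fold glycoproteins, were at 182 FPKM each in the mean. The sensors were far lower, with Eif2ak3 (PERK) at 3.14 ± 0.172, Ern1 (IRE1α) at 3.85 FPKM, Ern2 (IRE1β, the form of mucus-producing epithelium) at 4.54 ± 0.414 and Atf6 at 8.69 FPKM. Derl3, a retrotranslocation factor, was lowest at 0.614 FPKM. Atf4 itself was at 161 ± 18.9 FPKM and Asns, asparagine synthetase, at 134 ± 45.0 FPKM.

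To ask how these genes differed after MYO5B loss, groups were compared with edgeR's quasi-likelihood test, with p values adjusted over all genes tested by the Benjamini-Hochberg method (FDR) and a threshold of 0.05. These values set a difference between groups against the spread among these cultures. All 34 genes passed the filter on low counts in each comparison. In MYO5BΔIEC against control enteroids, 8 of the 34 passed the threshold, 3 higher and 5 lower, and 27.4% of the 17951 genes tested passed (13.5% higher, 13.8% lower). For MYO5B(G519R), also against control, 10 of the 34 passed, 4 higher and 6 lower, and 26.8% of the 17829 genes tested passed (13.1% higher, 13.7% lower). The cultures of the 2 groups did not overlap for 9 of the 34 genes in MYO5BΔIEC (3 higher, 6 lower, beside 26.9% of all genes, 13.0% higher and 13.8% lower) and for 13 in MYO5B(G519R) (3 higher, 10 lower, beside 27.4% of all genes, 13.6% higher and 13.8% lower). The called share of members was 23.5% and 29.4%, near the background. Edem1, Syvn1 and Eif2ak3 were higher, and Dnajc3 and Manf lower, in both comparisons, which share the 4 control cultures, and 21 of the 34 passed in neither. The plot of fold changes in both models shows that the intervals were narrow for chaperones and wide for ATF4 targets.

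**Figure D2:**
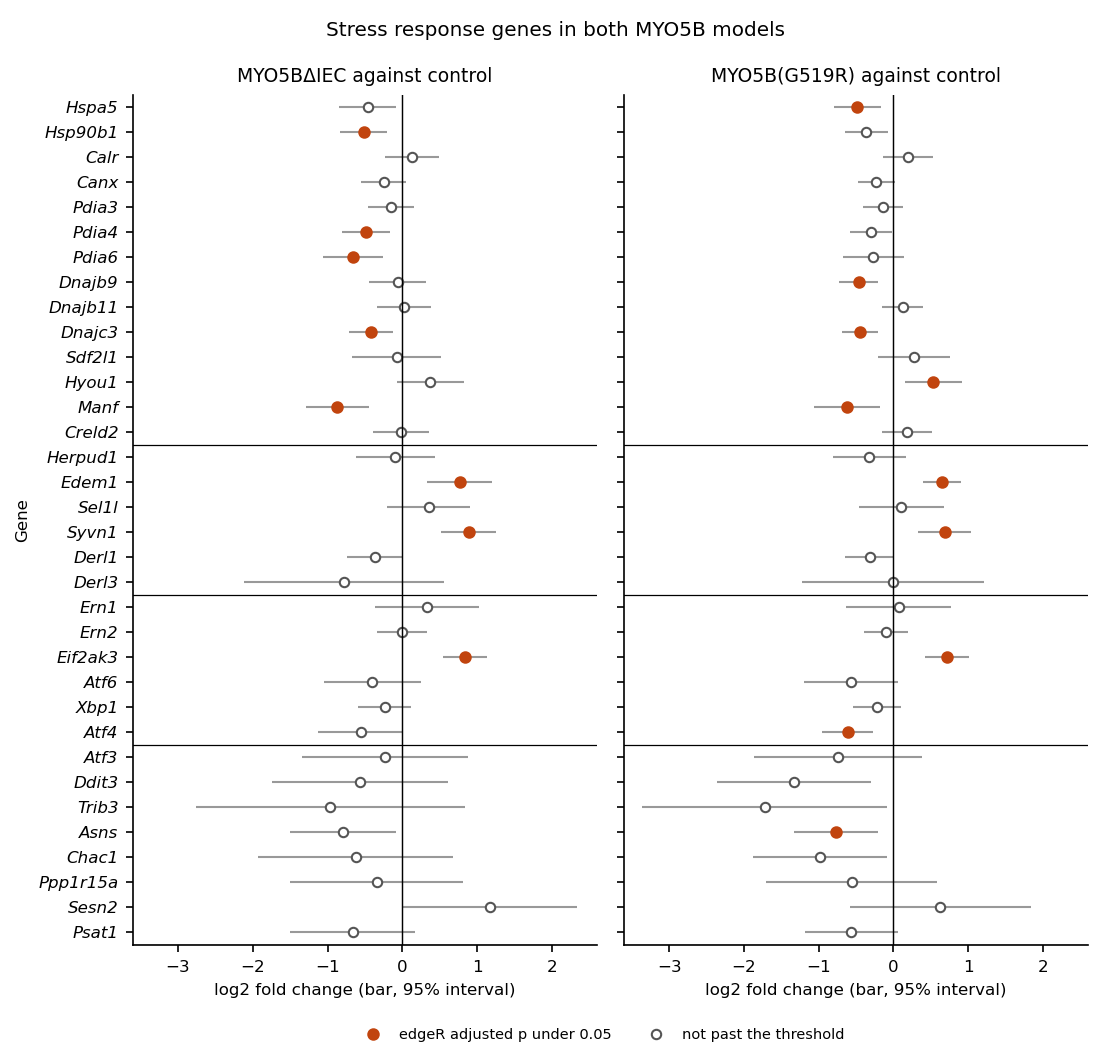
Log2 fold changes of the 34 genes against control in MYO5BΔIEC (left) and MYO5B(G519R) (right), with 95% intervals and horizontal lines between the role groups. Filled points had an edgeR FDR under 0.05, namely 8 genes on the left and 10 on the right, and among the 8 ATF4 targets at the bottom only Asns is filled, on the right.

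Among the 14 ER chaperones and folding factors, 5 fell and 0 rose in MYO5BΔIEC, and 4 fell and 1 rose in MYO5B(G519R). Of all genes tested, 13.8% and 13.7% fell and 13.5% and 13.1% rose. The median log2 fold change of the 14 was -0.20 and -0.25, where that of all genes tested was -0.011 and -0.052. Markers of some other cells were lower in the same comparisons, and those of others were higher. Of 8 goblet markers, 2 were called higher and 1 lower in MYO5BΔIEC, and 2 higher and 2 lower in MYO5B(G519R). Of 8 enterocyte markers, 3 were called higher and 0 lower in MYO5BΔIEC, and 2 higher and 1 lower in MYO5B(G519R). Of 6 enteroendocrine markers, 2 and 1 were called higher and 0 lower. Of 6 Paneth markers 2 were called lower in each model, with medians of -0.66 and -0.73, and their summed level was 3093 to 4475 CPM in the cultures of both models, 6650 to 7741 in control cultures 2, 3 and 4 and 3245 in control culture 1. Olfm4 fell by 2.26 (edgeR FDR = 0.0090) and 1.63 (edgeR FDR = 0.0174). It was the only 1 of 4 stem cell markers called, and 2 of the 4 had a positive sign in each model. Of 5 proliferation markers, 3 and 2 were called lower. The part of these cells in the values of the secretory pathway genes was not tested. Manf (ENSMUSG00000032575, chromosome 9, 106838312 to 106891979), a small ER protein secreted under ER stress, fell most. It was at 98.9, 156, 172 and 170 CPM in control cultures 1 to 4, at 97.9, 74.0, 78.0 and 75.6 in MYO5BΔIEC and at 104, 96.9, 71.7 and 116 in MYO5B(G519R) enteroids. Control culture 1 thus lay just above every MYO5BΔIEC culture and inside the range of MYO5B(G519R), and the other 3 controls lay above all 8 mutant cultures. The log2 fold change was -0.87 (SE 0.19, edgeR FDR = 0.0081) in MYO5BΔIEC and -0.62 (SE 0.20, edgeR FDR = 0.0447) in MYO5B(G519R). Without control culture 1 it was -1.02 (edgeR FDR = 0.000124) and -0.74 (edgeR FDR = 0.00166), in fits where 20.8% and 22.1% of all genes tested fell.

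Dnajc3 (ENSMUSG00000022136, chromosome 14, 118937976 to 118981697), a BiP cochaperone that also restrains PERK, was at 138, 164, 153 and 138 CPM in control cultures, 117, 91.6, 118 and 115 in MYO5BΔIEC enteroids and 102, 105, 109 and 119 in those with MYO5B(G519R). All 8 mutant cultures lay below all 4 controls, which was so for 13.8% of all genes tested in each model. It fell by 0.42 (SE 0.13, edgeR FDR = 0.0377) and by 0.45 (SE 0.11, edgeR FDR = 0.0132) on the log2 scale. The call in MYO5BΔIEC was kept in 2 of the 8 fits that left out 1 culture. In MYO5B(G519R) it was kept in 7 of 8, with an edgeR FDR of 0.0501 without MYO5B(G519R) culture 2.

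Hspa5 (ENSMUSG00000026864, chromosome 2, 34771970 to 34777547), the gene most often read as a sign of ER stress, was not higher in either model. It was at 1205, 878, 1016 and 881 CPM in control cultures 1 to 4, 752, 572, 717 and 831 in MYO5BΔIEC enteroids, 684, 701, 695 and 764 in MYO5B(G519R) and 767, 1017, 690 and 790 in Compound-1-treated enteroids. The cultures of both untreated models lay below every control, which was so for 13.8% of all genes tested in each model. In MYO5B(G519R) it fell, the log2 fold change being -0.48 (SE 0.14, edgeR FDR = 0.0310), and in MYO5BΔIEC the difference of -0.46 (SE 0.17, 95% interval -0.85 to -0.081) did not pass (edgeR FDR = 0.0697).

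Of the other chaperones, Hsp90b1, which encodes GRP94, fell in MYO5BΔIEC by 0.52 on the log2 scale (SE 0.14, edgeR FDR = 0.0229), and in MYO5B(G519R) its value was -0.36 (edgeR FDR = 0.0607). The disulfide isomerases Pdia4 and Pdia6 fell in MYO5BΔIEC, by 0.48 (edgeR FDR = 0.0324) and 0.66 (edgeR FDR = 0.0217). Dnajb9, a BiP cochaperone that is a classical target of XBP1, fell in MYO5B(G519R) by 0.47 (edgeR FDR = 0.0176). Hyou1, a large chaperone of the HSP70 family, went the other way and rose in MYO5B(G519R) by 0.53 on the log2 scale (SE 0.17, edgeR FDR = 0.0427). Its control cultures were at 182, 109, 121 and 107 CPM, so that control culture 1 lay at the low end of the MYO5B(G519R) range of 182 to 193 and the other 3 far below it. Without control culture 1, Hyou1 rose in both models, by 0.58 (edgeR FDR = 0.0113) and 0.77 (edgeR FDR = 9.46e-05), beside 21.2% and 24.0% of all genes tested. Calr, Canx, Pdia3, Dnajb11, Sdf2l1 and Creld2 passed in neither model, with log2 fold changes from -0.25 to 0.28. The calls of Hsp90b1, Pdia4 and Pdia6 in MYO5BΔIEC were kept in 3, 2 and 3 of the 8 leave-one-out fits, those of Hspa5, Dnajb9, Hyou1 and Manf in MYO5B(G519R) in 4, 5, 1 and 2 of 8, and that of Manf in MYO5BΔIEC in 8 of 8.

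In ER-associated degradation, 2 of 6 genes rose and 0 fell in each model, beside 13.5% and 13.1% of all genes higher. The same 2 rose in both models. Syvn1 (ENSMUSG00000024807, chromosome 19, 6046576 to 6053712), which encodes HRD1, the ubiquitin ligase at the core of the machinery, was at 44.6, 30.5, 28.5 and 29.1 CPM in control cultures, 68.9, 57.5, 56.9 and 61.0 in MYO5BΔIEC enteroids and 49.4, 49.8, 59.8 and 54.7 in those with MYO5B(G519R). Each mutant culture was above each control, which was so for 13.0% of all genes tested in MYO5BΔIEC and 13.6% in MYO5B(G519R). The log2 fold change was 0.89 (SE 0.17, edgeR FDR = 0.00438) and 0.69 (SE 0.16, edgeR FDR = 0.0125), and these calls were kept in all 8 fits that left out 1 culture and all 8 other alternatives. Edem1 (ENSMUSG00000030104, chromosome 6, 108828641 to 108859356), a lectin that delivers misfolded glycoproteins for degradation, was at 72.3, 73.4, 73.0 and 62.7 CPM in control cultures, 125, 118, 156 and 76.4 in MYO5BΔIEC enteroids and 112, 109, 124 and 94.97 in those with MYO5B(G519R). MYO5BΔIEC culture 4 was close to the controls and the other 7 mutant cultures were well above them. Its log2 fold change was 0.77 (SE 0.20, edgeR FDR = 0.0158) and 0.65 (SE 0.12, edgeR FDR = 0.00452), and the first was lost without control culture 4 (edgeR FDR = 0.0530).

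Herpud1, Sel1l, Derl1 and Derl3 passed in neither model. Sel1l, the partner of HRD1, was at 153 CPM in control culture 1, 67.9 to 74.0 in the other controls and 87.7 to 128 in the 8 cultures of both models. Without control culture 1 it rose by 0.72 (edgeR FDR = 0.000849) and 0.50 (edgeR FDR = 0.00413) on the log2 scale, beside 21.2% and 24.0% of all genes tested. With control culture 1 the values were 0.35 and 0.10.

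Of the 6 sensors and transcription factors, Eif2ak3 (ENSMUSG00000031668, chromosome 6, 70844515 to 70905245) rose in both models. Control cultures were at 19.2, 20.1, 20.3 and 18.1 CPM, MYO5BΔIEC at 40.2, 32.7, 32.7 and 33.2, MYO5B(G519R) at 27.5, 27.9, 34.9 and 37.5 and Compound-1-treated MYO5BΔIEC at 39.1, 30.1, 77.9 and 56.6. All 12 mutant cultures lay above the controls, which in the 2 untreated models was so for 13.0% and 13.6% of all genes tested. Control culture 1 was among its group for Eif2ak3, and the SD of the controls was 1.00 CPM. The log2 fold change was 0.84 (SE 0.13, edgeR FDR = 0.00234) in MYO5BΔIEC and 0.72 (SE 0.13, edgeR FDR = 0.00521) in MYO5B(G519R), and both calls were kept in all 16 alternatives. The plot of 6 ER genes by culture sets Eif2ak3, Syvn1 and Edem1 beside the chaperones that were lower.

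**Figure D3:**
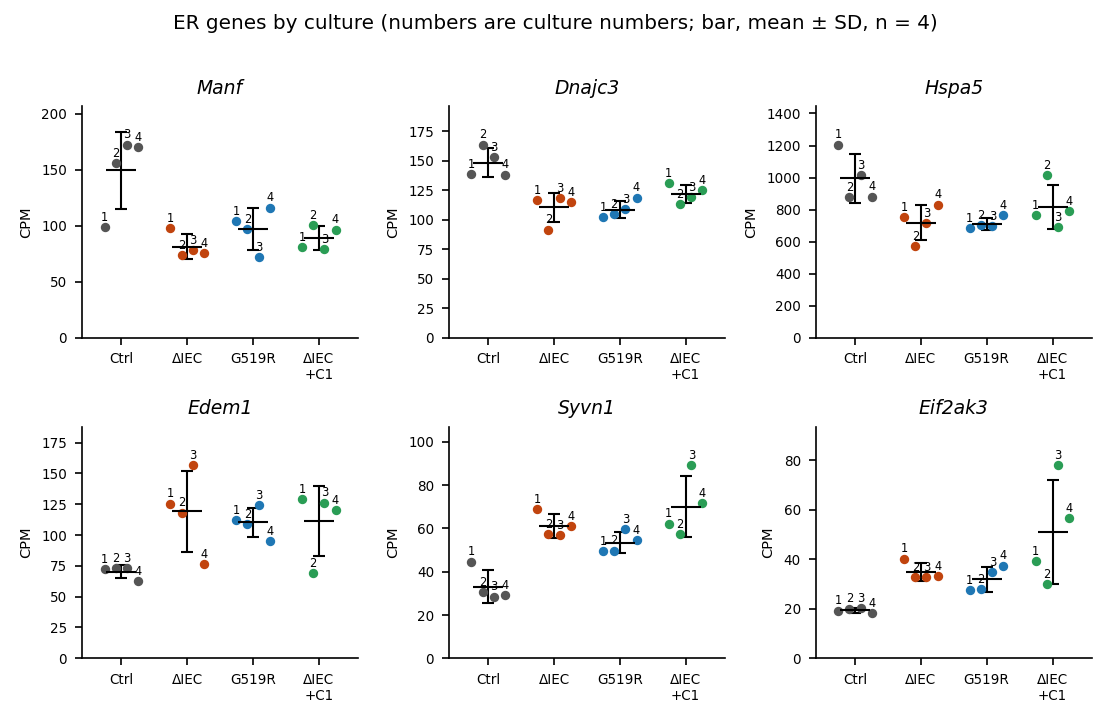
CPM of Manf, Dnajc3, Hspa5, Edem1, Syvn1 and Eif2ak3 in each culture, with axes from 0. Points are cultures marked with their number, and bars give the mean ± SD of 4 cultures. In the Eif2ak3 panel the 4 controls lie between 18.1 and 20.3 CPM and the lowest of the other 12 is at 27.5.

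The remaining sensors did not pass. Ern1 (ENSMUSG00000020715, chromosome 11, 106394650 to 106487852) was at 60.6, 25.2, 20.7 and 22.1 CPM in control, 40.3, 34.5, 37.0 and 49.0 in MYO5BΔIEC enteroids and 33.4, 33.3, 38.1 and 30.1 in those with MYO5B(G519R), so that control culture 1 was the highest and the other 3 controls were below all 8. Its log2 fold change was 0.33 (SE 0.32, edgeR FDR = 0.476) and 0.070 (SE 0.32, edgeR FDR = 0.897). Without control culture 1 it rose by 0.83 (edgeR FDR = 0.00115) and 0.61 (edgeR FDR = 0.00167), beside 21.2% and 24.0% of all genes tested. Atf6 (ENSMUSG00000026663, chromosome 1, 170704674 to 170867771) was at 147, 56.9, 61.1 and 62.9 CPM in control, 54.0, 49.6, 70.1 and 73.1 in MYO5BΔIEC enteroids and 57.9, 55.8, 53.3 and 54.8 in those with MYO5B(G519R). Only control culture 1 was far from the rest, and the log2 fold changes of -0.40 (SE 0.29) and -0.57 (SE 0.28) had edgeR FDR values of 0.339 and 0.166. Xbp1 had log2 fold changes of -0.23 (edgeR FDR = 0.311) and -0.22 (edgeR FDR = 0.297), on total transcript without regard to splicing, and Ern2 of 0.000705 (edgeR FDR = 0.998) and -0.10 (edgeR FDR = 0.616).

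Atf4 (ENSMUSG00000042406, chromosome 15, 80255184 to 80257541) was lower in MYO5B(G519R). Control cultures were at 444, 383, 388 and 345 CPM, MYO5B(G519R) at 279, 267, 193 and 281, MYO5BΔIEC at 260, 206, 165 and 424 and Compound-1-treated cultures at 205, 530, 207 and 260. All MYO5B(G519R) cultures were below all controls, which was so for 13.8% of all genes tested. In the other mutant groups a single culture each reached or passed the control range of Atf4. The log2 fold change was -0.61 (SE 0.15, edgeR FDR = 0.0158) in MYO5B(G519R) and -0.56 (SE 0.26, edgeR FDR = 0.131) in MYO5BΔIEC. The call in MYO5B(G519R) was kept in the 8 leave-one-out fits, with -0.51 (edgeR FDR = 0.0107) without control culture 1, and was lost when all 4 groups were fitted together (edgeR FDR = 0.141).

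No ATF4 target among 8 passed in MYO5BΔIEC by edgeR, beside 27.4% of all genes, and 1 had an unadjusted p under 0.05. In MYO5B(G519R) 1 of 8 fell, beside 13.7% of all genes lower. The median log2 fold change of the 8 was -0.59 and -0.75, further below 0 than that of the ER chaperones, and the sign was negative for 7 of 8 in each model. These medians rested on control culture 1. Without it they were 0.44 in MYO5BΔIEC and -0.17 in MYO5B(G519R), whereas those of the chaperones were -0.26 in both. The 0.44 still included MYO5BΔIEC culture 4, the highest of its group for all 8 targets. Its median log2 ratio to the other cultures of its group was 1.43. No fit left out this culture and control culture 1 together, so the part of culture 4 in the 0.44 was not tested. Asns (ENSMUSG00000029752, chromosome 6, 7675169 to 7693254), which makes asparagine, was at 546, 321, 369 and 267 CPM in control, 216, 142, 142 and 363 in MYO5BΔIEC enteroids and 251, 234, 141 and 257 in those with MYO5B(G519R). All MYO5B(G519R) cultures lay below all controls, which was so for 13.8% of all genes tested. The groups of MYO5BΔIEC and control overlapped for Asns through MYO5BΔIEC culture 4. Its log2 fold change was -0.77 (SE 0.25, edgeR FDR = 0.0472) in MYO5B(G519R), a call kept in 1 of the 8 fits that left out 1 culture, and -0.79 (SE 0.32, edgeR FDR = 0.0885) in MYO5BΔIEC.

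Ddit3 (ENSMUSG00000025408, chromosome 10, 127290774 to 127296288), which encodes the proapoptotic factor CHOP, was at 90.0, 22.4, 22.8 and 20.05 CPM in control cultures 1 to 4, at 19.6, 16.04, 17.4 and 51.7 in MYO5BΔIEC, at 17.0, 18.2, 14.1 and 12.4 in MYO5B(G519R) and at 17.1, 79.7, 19.2 and 18.4 in Compound-1-treated enteroids. One culture in each group except MYO5B(G519R) was far above its group. The log2 fold change was -0.56 (SE 0.53, edgeR FDR = 0.473) in MYO5BΔIEC and -1.33 (SE 0.46, edgeR FDR = 0.0580) in MYO5B(G519R). Without control culture 1, Ddit3 fell in MYO5B(G519R) by 0.46 on the log2 scale (edgeR FDR = 0.0256).

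A further 3 ATF4 targets, Trib3, Chac1 and Sesn2, are given in full and were chosen after their values were seen. Trib3, a pseudokinase that feeds back on ATF4, was at 245, 23.4, 33.2 and 24.9 CPM in control, 31.9, 16.9, 18.8 and 99.1 in MYO5BΔIEC enteroids, 31.4, 26.4, 14.04 and 27.1 in MYO5B(G519R) and 21.2, 157, 17.0 and 23.03 in Compound-1-treated cultures. Its high cultures were 9.83, 5.28 and 7.41 times the median of the other 3 in their groups. Chac1, which degrades glutathione, was at 65.8, 22.0, 23.8 and 21.7 CPM in control, 19.8, 10.7, 5.81 and 49.9 in MYO5BΔIEC enteroids, 19.8, 19.3, 8.73 and 19.7 in MYO5B(G519R) and 18.3, 75.0, 16.3 and 24.9 in Compound-1-treated cultures. The same 3 cultures were highest.

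Sesn2, a stress-induced inhibitor of mTORC1, had another distribution. Control cultures were at 75.3, 13.7, 14.5 and 14.3 CPM, MYO5BΔIEC at 44.3, 71.4, 59.9 and 88.4, MYO5B(G519R) at 39.0, 37.6, 65.1 and 40.4 and Compound-1-treated cultures at 39.7, 88.3, 72.0 and 48.0. All 12 mutant cultures were above control cultures 2, 3 and 4, whereas control culture 1 exceeded 10 of them. The share of all genes with such a separation from these 3 controls is not given here. With all cultures, the log2 fold change was 1.17 (SE 0.53, edgeR FDR = 0.124) in MYO5BΔIEC and 0.63 (SE 0.54, edgeR FDR = 0.426) in MYO5B(G519R). Without control culture 1, Sesn2 rose by 2.23 (SE 0.21, edgeR FDR = 4.48e-05) and 1.72 (SE 0.19, edgeR FDR = 0.000102) on the log2 scale, beside 21.2% and 24.0% of all genes tested.

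Against the 3 other controls, 14 of the 34 genes passed for MYO5BΔIEC, 17 for MYO5B(G519R) and 14 for Compound-1-treated enteroids, beside 42.0%, 46.2% and 42.1% of all genes tested, so that the genes described here again stood near the background. In MYO5BΔIEC 9 were higher and 5 lower (21.2% and 20.8% of all genes), in MYO5B(G519R) 8 and 9 (24.0% and 22.1%) and in Compound-1-treated enteroids 10 and 4 (22.9% and 19.2%). Atf3, a stress-induced transcription factor, then rose in MYO5BΔIEC by 0.75 (edgeR FDR = 0.0131), and Ppp1r15a, which encodes GADD34, the subunit that reverses eIF2 phosphorylation, rose in MYO5BΔIEC by 0.66 (edgeR FDR = 0.0467) and in MYO5B(G519R) by 0.49 (edgeR FDR = 0.0104). Psat1, an enzyme of serine synthesis, did not pass in any of these fits.

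ER chaperones and ATF4 targets were then compared within cultures. For each gene, a culture was set against the median of the other 3 cultures of its own group, so that the comparison does not depend on differences between groups. The cultures named below were picked because they are high, and the values are therefore a description. The 8 ATF4 targets were all above that median in control culture 1, MYO5BΔIEC culture 4 and Compound-1-treated culture 2, with median log2 ratios of 2.08, 1.43 and 1.18, and 6, 5 and 5 of the 8 were over 2-fold higher. Among all 19000 genes with enough counts, 9.49%, 4.98% and 7.22% were over 2-fold higher in those cultures. The 14 ER chaperones had median log2 ratios of -0.26, 0.12 and 0.035 in the same cultures, and 0 of 14 was over 2-fold higher in any of the 3. In the other 13 cultures the median of the ATF4 targets lay between -0.55 and 0.38.

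**Figure D4:**
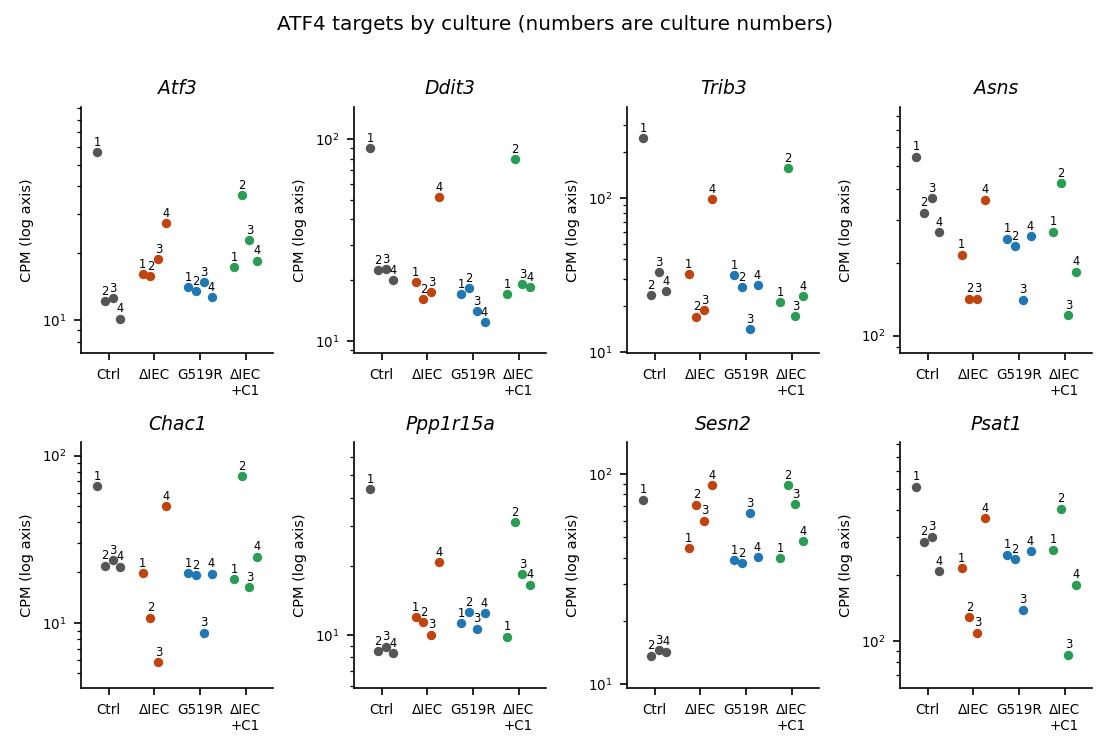
CPM of the 8 ATF4 targets in each culture, on log axes. Points are cultures marked with their number. Control culture 1, MYO5BΔIEC culture 4 and Compound-1-treated culture 2 are the highest of their groups in the 8 panels, and in the Sesn2 panel control cultures 2, 3 and 4 lie below all other points.

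The high cultures were not alike. In control culture 1, Atf3, Ppp1r15a and Sesn2 were 4.68, 5.12 and 5.27 times the median of the other controls, while Asns and Psat1 were 1.70 and 1.78 times and Atf4 was 1.16 times. In MYO5BΔIEC culture 4, Asns and Psat1 were 2.55 and 2.85 times the median of their group and Atf4 was 2.06 times, while Atf3, Ppp1r15a and Sesn2 were 1.70, 1.82 and 1.48 times. In Compound-1-treated culture 2 the amino acid genes and Atf4 were again above the other 3, with Asns and Psat1 at 2.32 and 2.23 times, Atf4 at 2.56 times, and Atf3, Ppp1r15a and Sesn2 at 1.97, 1.88 and 1.84 times. Control culture 1 also had higher Ern1, Atf6, Sel1l and Herpud1, with log2 ratios of 1.43, 1.26, 1.10 and 0.99 to the other controls, against -0.073 to 0.51 in the other high cultures. Edem1 was low where these cultures were mutant, with log2 ratios of -0.71 and -0.86.

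Other genes of the ATF4 response, which the choice of members did not include, followed the same cultures. Of 23 other ATF4 targets, the median log2 ratio was 1.25, 1.01 and 1.15 in control culture 1, MYO5BΔIEC culture 4 and Compound-1-treated culture 2. For 11 cytosolic aminoacyl-tRNA synthetases, which charge tRNAs with amino acids and are transcribed under ATF4, it was 0.92, 0.91 and 0.71, and all 11 were above the median of the other cultures in each of the 3. All 11 were also above it in MYO5BΔIEC culture 1 and MYO5B(G519R) culture 4, where the medians were smaller, at 0.32 and 0.21. In control culture 1, enterocyte and Paneth markers were low, with median log2 ratios of -1.68 and -1.10. Tuft markers were high there, with 4 of 4 above the median of the other controls and a median log2 ratio of 1.18. That of the stem cell markers was 0.47. In MYO5BΔIEC culture 4, 8 of 8 enterocyte markers were below the group median with a median log2 ratio of -0.53, and in Compound-1-treated culture 2 it was 0.028. In MYO5BΔIEC culture 2, where the ATF4 targets were at -0.44, it was -0.48. Enteroendocrine markers were high in MYO5BΔIEC culture 4 and Compound-1-treated culture 2, with 6 of 6 above the median and median log2 ratios of 0.51 and 1.12. In Compound-1-treated culture 2, 5 of them were over 2-fold higher. They were high in other cultures too. In MYO5BΔIEC culture 2, 6 of 6 were above the median, at 0.37. In Compound-1-treated culture 3 their median was 0.78, with ATF4 targets at -0.18. In control culture 1 the enteroendocrine median was 0.13. The part of cell composition in the ATF4 values was not tested.

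**Figure D5:**
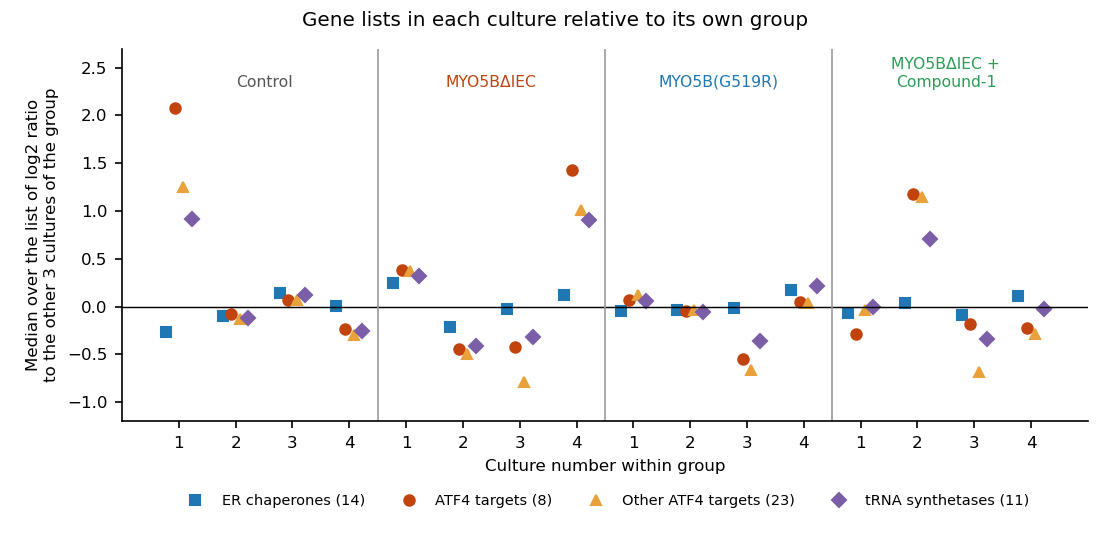
Median log2 ratio of each gene list in each culture to the median of the other 3 cultures of its group. Squares are the 14 ER chaperones, circles the 8 ATF4 targets, triangles 23 other ATF4 targets and diamonds 11 aminoacyl-tRNA synthetases. In control culture 1, MYO5BΔIEC culture 4 and Compound-1-treated culture 2 the last 3 lists lie at 0.71 or above, and the chaperones lie between -0.26 and 0.12.

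Compound-1 changed none of the 34 genes in MYO5BΔIEC enteroids at the threshold, and 0% of the 18037 genes tested passed by edgeR. One of the 34 had an unadjusted p under 0.05, and among all genes 1355 did. DESeq2 called 0 of the 34 as well, and its share of all genes is not given here. The paper, which used DESeq2, reported genes altered by Compound-1 in these enteroids, so the 0% holds for edgeR only. The median log2 fold change was 0.11 for ER chaperones, which ranged from -0.063 to 0.20, and 0.30 for ATF4 targets, beside 0.0034 for all genes tested. Without Compound-1-treated culture 2 the ATF4 median turned to -0.23, and without MYO5BΔIEC culture 4 it was 0.67. The 95% interval of the log2 fold change was -0.22 to 0.53 for Hspa5, -0.21 to 0.41 for Manf, -0.84 to 1.52 for Ddit3 and -0.70 to 0.47 for Sesn2, so that changes of over 2-fold in Hspa5 and Manf lay outside the intervals and such a change in Ddit3 did not.

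The gene with the unadjusted p was Ern2 (ENSMUSG00000030866, chromosome 7, 122169893 to 122186207). It was at 13.9, 13.7, 11.7 and 15.7 CPM in MYO5BΔIEC and at 12.0, 15.4, 32.6 and 26.7 in Compound-1-treated cultures, a log2 fold change of 0.62 (SE 0.28, edgeR FDR = 0.662). Cultures 3 and 4 of the treated group were high and cultures 1 and 2 were not, and the same 2 cultures were highest for Eif2ak3. Goblet cell markers moved with them. In treated culture 3 all 8 goblet markers were the highest of the group, and their summed level in the treated cultures ran from 2192 to 6175 CPM, against 2077 to 2519 CPM in untreated MYO5BΔIEC and 1655 to 2010 CPM in control cultures. Fcgbp was a large part of these sums, at 3593 CPM in treated culture 3, 1046 to 1493 in untreated MYO5BΔIEC and 277 to 889 in control cultures. By sign, 3 of the 8 markers were higher and 5 lower in untreated MYO5BΔIEC against control. The part of goblet cells in the Ern2 and Eif2ak3 values was not tested.

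Set against control, Compound-1-treated enteroids had 7 of the 34 genes past the threshold, beside 29.4% of all 17937 genes tested (15.7% higher, 13.7% lower). Hyou1, Edem1, Syvn1 and Eif2ak3 were higher and Hsp90b1, Pdia6 and Manf were lower. Syvn1 and Eif2ak3 had log2 fold changes of 1.08 (SE 0.20, edgeR FDR = 0.00551) and 1.39 (SE 0.26, edgeR FDR = 0.00593), and both calls were kept in all 16 alternatives. The other calls were less stable: of the 8 leave-one-out fits, 1 kept Hyou1, 1 Hsp90b1, 2 Pdia6, 2 Edem1 and 6 Manf, and Hyou1 and Edem1 were also lost with the trend on gene length removed. Manf had a log2 fold change of -0.75 (SE 0.19, edgeR FDR = 0.0162). These are comparisons with the controls used above and are not independent of the others.

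A direct comparison of the untreated models called 0 of the 34 genes by edgeR, beside 0.00557% of the 17943 genes tested. DESeq2 also called 0 of the 34, and its share of all genes is not given here. Unadjusted p values were under 0.05 for 5 of the 34, namely Pdia6 (log2 fold change 0.40), Dnajb9 (-0.40), Atf3 (-0.50), Ddit3 (-0.76) and Sesn2 (-0.54), each with an edgeR FDR of 0.838, and for 772 of all genes. The members that passed in one model only are therefore not shown to differ between the models.

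Genes of the same pathways outside the 34 were counted in lists. The translocon, signal recognition and signal peptidase genes, which bring proteins into the ER and trim them, fell most often: 14 of 22 in MYO5BΔIEC and 12 of 22 in MYO5B(G519R), with 0 higher in either and medians of -0.66 and -0.53, beside 13.8% and 13.7% of all genes lower. Some Paneth and proliferation markers and Olfm4 were called lower in the same comparisons, as given with the ER chaperones. Some goblet, enterocyte and enteroendocrine markers were called higher. Ssr4, a translocon-associated subunit, fell by 1.11 (edgeR FDR = 0.00242) and 0.89 (edgeR FDR = 0.00836), and Spcs1, of the signal peptidase, by 0.89 (edgeR FDR = 0.00277) and 0.87 (edgeR FDR = 0.00379). Among 18 other ER folding genes, 5 and 6 fell and 0 rose. Fkbp11, a prolyl isomerase of secretory cells, fell by 1.27 (edgeR FDR = 0.0014) and 0.88 (edgeR FDR = 0.00725), and Agr2, an isomerase needed for mucin folding, by 0.96 (edgeR FDR = 0.00207) and 0.82 (edgeR FDR = 0.00352). In the 16 other genes of ER-associated degradation, 2 fell and 0 rose in MYO5BΔIEC and 3 fell and 1 rose in MYO5B(G519R).

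Of 22 other transducers and eIF2 genes, 2 rose and 5 fell in each model. Among all genes tested, 13.5% rose and 13.8% fell in MYO5BΔIEC, and 13.1% rose and 13.7% fell in MYO5B(G519R). Creb3l2, an ER-bound transcription factor of secretory pathway genes, rose by 1.24 (edgeR FDR = 0.00168) and 0.87 (edgeR FDR = 0.00476), while Eif2s1, which encodes the eIF2α subunit that PERK phosphorylates, fell by 0.78 in each (edgeR FDR = 0.00346 and 0.00229). Among 23 other ATF4 targets, 1 rose and 4 fell in MYO5BΔIEC and 3 fell in MYO5B(G519R), where Cth, which makes cysteine, fell by 1.24 (edgeR FDR = 0.0255) and 1.41 (edgeR FDR = 0.00375). Without control culture 1 the median of these 23 genes turned from -0.34 to 0.14 and from -0.32 to 0.31. Then 6 rose and 2 fell in MYO5BΔIEC and 6 rose and 3 fell in MYO5B(G519R), where 21.2% and 24.0% of all genes rose, so that the rises were near the background. Of the 11 tRNA synthetases, 1 fell in MYO5BΔIEC and 2 in MYO5B(G519R), beside 13.8% and 13.7% of all genes. Their medians of -0.25 and -0.28 turned to 0.11 and 0.065 without control culture 1. Then 1 rose and 0 fell in MYO5BΔIEC and 2 rose and 2 fell in MYO5B(G519R). MYO5BΔIEC culture 4 stayed in the MYO5BΔIEC fits without control culture 1. Its median log2 ratio was 1.01 for the other ATF4 targets and 0.91 for the tRNA synthetases.

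Fold changes against control were related to gene length across all genes, with Spearman correlations of 0.29 in each model, so the tests were repeated with each library's trend on gene length removed. Syvn1 still rose, by 0.79 (MYO5BΔIEC) and 0.60 (MYO5B(G519R)) on the log2 scale, as did Edem1, by 0.60 and 0.51, and Eif2ak3, by 0.69 and 0.59. Manf and Dnajc3 still fell in both. Hspa5 then fell in both models, by 0.54 in each (edgeR FDR = 0.0300 and 0.0122). In MYO5B(G519R), Sdf2l1 and Creld2 then rose, by 0.61 (edgeR FDR = 0.0123) and 0.41 (edgeR FDR = 0.0293), and Asns did not pass. The translocon list kept 14 and 11 lower calls.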

How the data were processed

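RNA of 16 cultures in 4 groups was analyzed, with groups taken from the sample labels. According to the submitters' processing notes, reads were aligned to GRCm38 with STAR 2.5 and counted per gene with HTSeq 0.6.1. Counts were deposited as raw reads per gene, and the FPKM deposited beside them scale those counts by gene length and library size. Treatment of reads with several positions and of strand is not given in the sources used here.

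Groups were compared in pairs with edgeR 4.0.16 in R 4.3.3 (TMM scaling, quasi-likelihood F test, Benjamini-Hochberg adjusted p values, here FDR), keeping a gene that reached 10 counts in 2 or more of the 8 cultures. Alternatives were DESeq2 1.42.0, its size factors within edgeR, filterByExpr, no filter, all 4 groups in one fit, the culture number as a block, removal of the trend on gene length, limma 3.58.1 on log2(FPKM + 1), and each culture left out in turn. Scripts were tested on simulated data. Ratios within a group used log2(CPM + 0.5).

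The 34 genes, the gene lists and the comparisons were chosen with earlier results of these data known. Values in every culture are given for genes that passed in both models, for Asns as the ATF4 target of smallest p, and for Ern1, Atf6, Atf4, Ddit3 and Hspa5. Trib3, Chac1, Sesn2, Ern2, Hyou1 and Sel1l were added after their values were seen. Promoter sequences are from RefSeq.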

Additional observations from a re-analysis of the deposited data

Results flagged for a closer look

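In each group of 4 cultures, a gene was listed when the gap between its highest or lowest culture and the next one was, as a share of the group's range, above Dixon's 95% limit for 4 values. Of 136 gene and group pairs, 36 were listed, where chance gives about 1 in 20, or 6.8. Control culture 1 accounted for 14 of them. It was the highest control for Herpud1 (167 CPM), Sel1l (153), Syvn1 (44.6), Derl1 (204), Ern1 (60.6), Atf6 (147), Xbp1 (274), Atf3 (57.0), Ddit3 (90.0), Trib3 (245), Chac1 (65.8), Ppp1r15a (43.6) and Sesn2 (75.3 CPM), and the lowest for Pdia6 (242 CPM).

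Compound-1-treated culture 2 was the highest of its group for Atf4 (530 CPM), Ddit3 (79.7), Trib3 (157) and Chac1 (75.0 CPM) and the lowest for Edem1 (69.1 CPM). MYO5BΔIEC culture 4 was the highest for Ddit3 (51.7 CPM).

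MYO5B(G519R) culture 4 was the highest of its group for Pdia3 (617 CPM), Pdia4 (169), Dnajb11 (99.2), Creld2 (45.8) and Herpud1 (92.8 CPM), and all but Herpud1 are ER folding factors. MYO5B(G519R) culture 3 was the lowest for Atf4 (193 CPM) and Chac1 (8.73 CPM) and the highest for Sesn2 (65.1 CPM). MYO5BΔIEC culture 2 was the lowest for Hsp90b1 (383 CPM), Dnajc3 (91.6) and Xbp1 (151 CPM), and MYO5BΔIEC culture 1 the highest for Manf (97.9 CPM) and Eif2ak3 (40.2 CPM). The remaining values were Hsp90b1 in Compound-1-treated culture 3 (322 CPM, lowest), Pdia3 in control culture 3 (616 CPM, highest) and Edem1 in control culture 4 (62.7 CPM, lowest).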

How the results depend on the processing

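No called value among the 34 genes changed its direction under the alternatives run. With the culture number as a replicate block, 4 genes passed in MYO5BΔIEC against control (8 without it), 6 in MYO5B(G519R) against control (10) and 4 in Compound-1-treated enteroids against control (7), and the cause was not tested. No source says that the numbers pair the cultures. Deviations of same-numbered cultures from their group means had correlations of -0.21 to 0.24 in the comparisons with control. Between Compound-1-treated and untreated MYO5BΔIEC enteroids they were -0.14 to 0.099, and 0 of 4 cultures correlated best with their own number. Between the untreated models they were 0.072 to 0.57, with 3 of 4 over 0.1 and 3 of 4 cultures correlating best with their own number, a hint from the data and not from the design, and with the replicate block 0 of the 34 genes passed there, as without it. Leaving out 1 culture gave 3 to 14 genes in MYO5BΔIEC against control, 5 to 17 in MYO5B(G519R) against control, 2 to 14 in Compound-1-treated enteroids against control, and 0 in the other comparisons. In MYO5BΔIEC the count moved by over 1.5 times without control culture 1 (14), 2 (4), 3 (4) or 4 (3) or MYO5BΔIEC culture 1 (5) or 2 (4). In MYO5B(G519R) it did so without control culture 1 (17) or 3 (5) or MYO5B(G519R) culture 1 (5), 2 (5) or 3 (6). In Compound-1-treated enteroids it did so without control culture 1 (14), 2 (3), 3 (2) or 4 (2) or treated culture 1 (4), 3 (3) or 4 (3). The other alternatives gave 6 to 10, 7 to 14 and 5 to 9 genes. The share of all genes called moved too, from 27.4%, 26.8% and 29.4% to 42.0%, 46.2% and 42.1% without control culture 1. It is not given for the other fits, so these counts do not show whether the 34 genes moved more than all genes. For each of the 8 ATF4 targets in MYO5BΔIEC against control, the 95% interval held a 2-fold difference.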
